A study of Mus musculus with 23 samples.

Results

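RNA levels of 10 genes of CD4 T helper cells, of the Th2 lineage and of regulatory T (Treg) cells were examined in the lungs of adult mice. The genes were Cd3e, Cd3d, Cd4, Icos, Cd28, Cd40lg, Foxp3, Ctla4, Gata3 and Il2ra, taken by symbol from the 35322 genes listed. All 10 were listed, and all 10 were among the 16795 genes with at least 0.5 RPM (a gene's reads scaled to a library size common to all libraries) in at least 4 of the 23 libraries, which were the genes tested. The libraries came from lung of female BALB/c offspring aged 13 weeks. Sham offspring (7 libraries) were born to dams given saline through the nose before mating, during gestation and until weaning, and PM offspring (7 libraries) to dams given fine particulate matter (PM2.5) on the same schedule. Both groups breathed nebulised saline, which the labels call PBS, and the study's methods describe the OVA injections for all offspring without setting the saline controls apart, whereas the labels do not say whether the controls were injected. Sham-OVA (5 libraries) and PM-OVA (4 libraries) offspring, of saline and PM2.5 dams respectively, were injected with ovalbumin (OVA) on alum and then challenged with nebulised OVA, a model of allergic airway disease (AAD). In all 4 groups lung function was tested with methacholine before collection. The tissue is given in the labels as lung (RML), whereas the methods name the right lower lobe.

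CD4 T helper cells recognise antigen through a T cell receptor that signals through the CD3 chains, with CD4 as the co-receptor that binds MHC class II. Full activation needs costimulation, in which CD28 and its relatives ICOS and CTLA-4 meet ligands on antigen-presenting cells, and CD40 ligand passes help on to B cells and dendritic cells. GATA3 directs differentiation to Th2 cells, the source of the cytokines IL-4, IL-5 and IL-13 in allergic airways, and FOXP3 directs the Treg lineage, which carries high CTLA-4 and the interleukin-2 receptor chain CD25 (Il2ra). GATA3 is also needed by group 2 innate lymphoid cells (ILC2) and is present in other cells of the body, so its RNA in whole lung is not particular to T cells.

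Between 13089691 and 17393579 reads fell on genes in the saline libraries, and between 2298645 and 12355561 in the OVA libraries. In the shallowest, Sham-OVA replicate 3, 1 read was worth 0.311 RPM, in PM-OVA replicates 3 and 4 it was worth 0.133 and 0.182 RPM, and in the saline libraries at most 0.0688 RPM. The library labelled Sham replicate 1 went against the female sex, since it held 0.289 RPM of Xist, which is transcribed from the inactive X chromosome of females, whereas the other 22 libraries held at least 174 RPM, and it held 54.0 RPM of the Y-linked gene Eif2s3y, listed at 0 in the other 22. Foxp3 and Cd40lg lie on the X chromosome. PM replicate 1 held 178 RPM of Clca1, a goblet cell gene, which reached at most 6.16 RPM in the other 13 saline libraries and at least 423 RPM in the OVA libraries, and without it the 4 members called in PM-OVA compared to PM were again higher. Without Sham replicate 1 the same 5 members were called higher in Sham-OVA compared to Sham as with it.

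Several members lie close together in the genome (GRCm38, GENCODE annotation). Cd28 (chromosome 1, 60716800 to 60773359), Ctla4 (60887000 to 60915832) and Icos (60977927 to 61000320) follow each other on the plus strand of chromosome 1, 113.6 kb and 62.09 kb apart. Cd3d (chromosome 9, 44981786 to 44987339) and Cd3e (44998740 to 45009627) lie 11.4 kb apart on opposite strands, next to Cd3g, the gene of the third CD3 chain of this cluster. Gata3 (9857078 to 9890034) and Il2ra (11642807 to 11693193) are both on chromosome 2, Cd4 is on chromosome 6 (124864692 to 124888221), and Cd40lg (57212143 to 57224042) and Foxp3 (7573644 to 7595245) are on chromosome X. The exons of these protein-coding genes span between 1250 bases (Cd40lg) and 6122 bases (Cd28) when merged.

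RefSeq promoters (GRCm38.p6, 250 bases before to 50 bases after a start site) were matched for 6 of the 10 members, namely Cd3e, Cd3d, Foxp3, Ctla4, Gata3 and Il2ra. The promoters of the CD3 genes, of Ctla4 and of Gata3 are shown, because these are the members, beside Cd4, that were called higher in Sham-OVA compared to Sham. They run 5′ to 3′ on the strand of the gene, and capitals mark matches on either strand to 4 motifs. These are the core bound by NFAT factors, GGAAA, the GATA motif in the form GATAA, the STAT motif in the form TTCNNNGAA, and the TATA box in the form TATAAA.
Ctla4, chr1:60908775-60909074, plus strand: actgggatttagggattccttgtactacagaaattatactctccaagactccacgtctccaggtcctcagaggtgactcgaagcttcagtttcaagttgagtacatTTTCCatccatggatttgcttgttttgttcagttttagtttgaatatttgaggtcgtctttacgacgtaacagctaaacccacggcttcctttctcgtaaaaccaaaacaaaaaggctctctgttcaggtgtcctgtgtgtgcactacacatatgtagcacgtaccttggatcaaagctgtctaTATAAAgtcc
Gata3, chr2:9878551-9878850, minus strand: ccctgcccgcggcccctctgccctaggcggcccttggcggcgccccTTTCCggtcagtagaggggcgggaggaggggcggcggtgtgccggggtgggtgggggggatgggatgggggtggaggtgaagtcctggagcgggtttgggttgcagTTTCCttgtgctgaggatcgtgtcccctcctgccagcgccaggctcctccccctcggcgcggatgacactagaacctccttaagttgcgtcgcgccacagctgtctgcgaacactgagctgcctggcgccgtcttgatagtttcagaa
Cd3d, chr9:44981536-44981835, plus strand: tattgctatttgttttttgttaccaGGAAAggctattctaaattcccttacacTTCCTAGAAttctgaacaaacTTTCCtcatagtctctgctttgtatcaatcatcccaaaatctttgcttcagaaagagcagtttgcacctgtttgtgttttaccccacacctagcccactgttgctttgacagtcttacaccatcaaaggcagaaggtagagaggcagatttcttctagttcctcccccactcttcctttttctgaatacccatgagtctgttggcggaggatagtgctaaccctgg
Cd3e, chr9:45009562-45009861, minus strand: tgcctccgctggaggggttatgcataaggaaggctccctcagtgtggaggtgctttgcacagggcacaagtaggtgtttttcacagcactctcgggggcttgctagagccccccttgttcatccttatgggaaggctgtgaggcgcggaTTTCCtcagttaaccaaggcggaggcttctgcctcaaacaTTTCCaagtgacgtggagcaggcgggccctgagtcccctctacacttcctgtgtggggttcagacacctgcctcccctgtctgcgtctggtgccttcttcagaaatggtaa
The 4 windows differ most in CG dinucleotides. Gata3 holds 22 CG dinucleotides, more than 76.9% of the 32851 promoters of the table, Ctla4 and Cd3e hold 8 each, close to the median of 7, and Cd3d holds 1. GGAAA is present once in Ctla4 and 2 times in each of the other promoters shown, and 61.34% of all promoters hold at least 1 match. TATAAA is present in Ctla4 among the 4 (13.62% of all promoters) and TTCNNNGAA in Cd3d (8.298%), whereas GATAA, found in 25.41% of all promoters, is in none of the 4 but is in both Foxp3 promoters, 2 times in one and once in the other. The start sites of Ctla4, Gata3 and Foxp3 used by RefSeq lie inside the longer gene spans of GENCODE.

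To compare the members with each other, RPM was divided by exonic length. In Sham lung the T cell receptor genes stood highest, with 4.34 ± 1.79 RPM per kb for Cd3e, 3.91 ± 1.56 for Cd3d and 3.91 ± 0.813 for Cd4 (mean ± SD, n = 7). Gata3 (2.92 ± 0.762 RPM per kb), Cd28 (2.78 ± 0.845) and Icos (2.42 ± 0.748) followed, then Ctla4 (1.36 ± 0.199), Il2ra (0.979 ± 0.142), Cd40lg (0.653 ± 0.227) and Foxp3 (0.313 ± 0.0991). Neighbours within the first 3 and within the second 3 differed by less than their SDs. The order changed in Sham-OVA lung, where Cd4 (12.9 ± 3.68 RPM per kb) and Gata3 (12.3 ± 2.74) were highest, Cd3e (8.53 ± 2.95), Cd3d (7.18 ± 2.32) and Ctla4 (7.06 ± 4.65) came next, and Icos (2.93 ± 2.12) and Cd28 (2.67 ± 0.340) stood below Ctla4 (n = 5). Foxp3 (0.529 ± 0.191 RPM per kb) and Cd40lg (0.513 ± 0.384) were the lowest 2 members, and the difference between them was within their SDs.

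**Figure D1:**
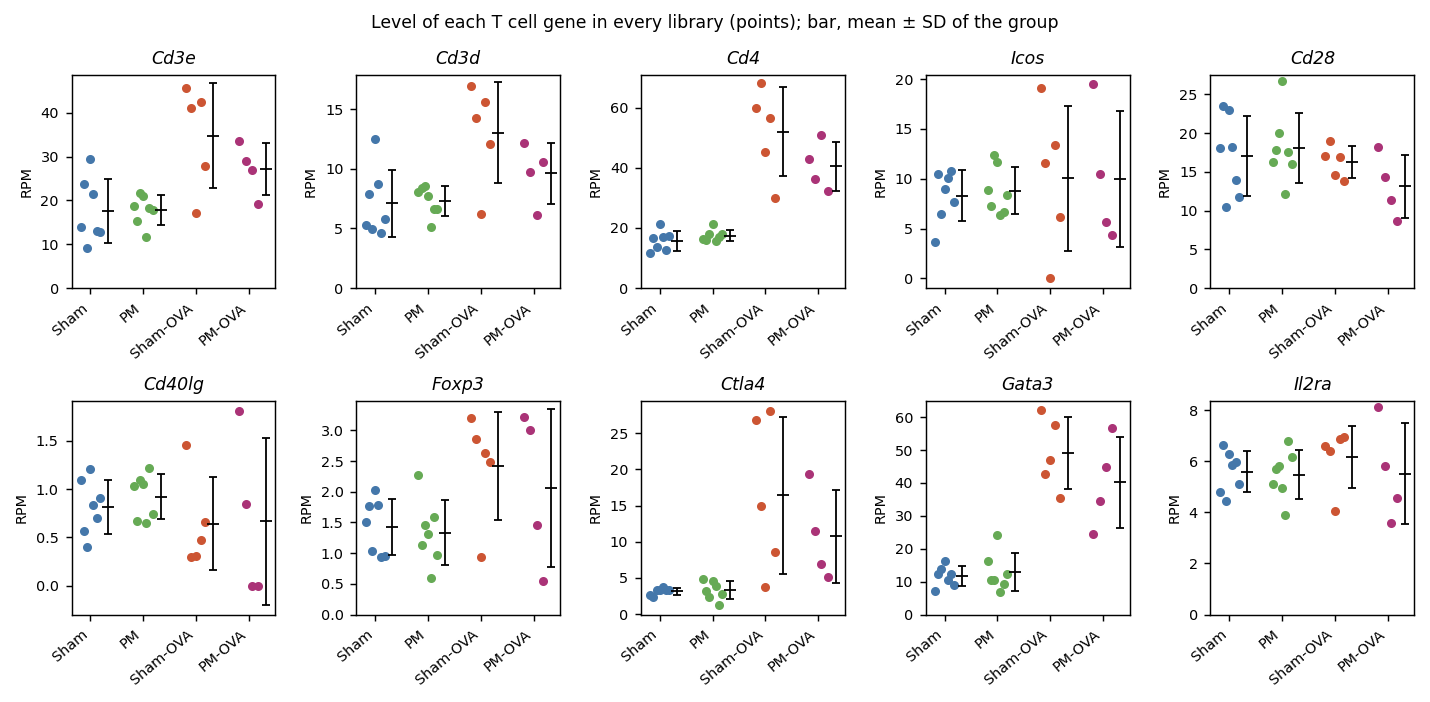
RPM of the 10 members in each of the 23 libraries, 1 panel a gene with a linear axis of its own. Points are libraries and bars the mean ± SD of the 7 Sham, 7 PM, 5 Sham-OVA and 4 PM-OVA libraries, and for Cd4 and Gata3 every OVA library lies above every saline library of the same maternal exposure.

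The first comparison addresses the response to OVA challenge in offspring of saline dams. In Sham-OVA compared to Sham, Gata3, Ctla4, Cd4, Cd3e and Cd3d were higher, between 1.83-fold for Cd3d and 5.19-fold for Ctla4 as a ratio of mean RPM, and the other 5 members did not pass the test. These 5 of 10 stand beside 20.6% of the 16795 genes tested called higher, and 0 of the 10 beside 47.5% called lower, at an adjusted p under 0.05 (limma with Benjamini-Hochberg adjustment over all genes tested). The members and the gene lists were chosen with earlier results of these data known. These counts, and the later ones set beside shares of all genes, are therefore descriptions of the chosen genes. The median log2 difference of the 10 members was 0.70, and that of all genes tested was -0.48. In bulk lung, more cells of a type and more RNA per cell cannot be told apart, nor can fewer cells and less RNA per cell.

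In offspring of PM2.5 dams, PM-OVA compared to PM, Gata3, Ctla4, Cd4 and Cd3e were higher, and the other 6 members did not pass. The count of 4 of 10 stands beside 20.1% of genes called higher, and that of 0 beside 45.2% called lower. The members' median log2 difference was 0.36 and that of all genes -0.43. No library is shared between this comparison and the previous one.

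The split of calls moved with the scaling between libraries. Of all calls in Sham-OVA compared to Sham, 30.2% were higher on the RPM scale, 43.4% with median-of-ratios factors and 48.5% after quantile normalisation, and in PM-OVA compared to PM the shares were 30.8%, 44.7% and 49.3%. The median of all genes moved with it, in Sham offspring from -0.48 to -0.17 and -0.05 on the log2 scale. Taken relative to the median gene, all 10 members were above it in Sham offspring, from 0.09 for Icos to 2.52 for Gata3, and 8 of 10 in PM offspring, where Cd28 (-0.03) and Cd40lg (-0.15) lay just below it.

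**Figure D2:**
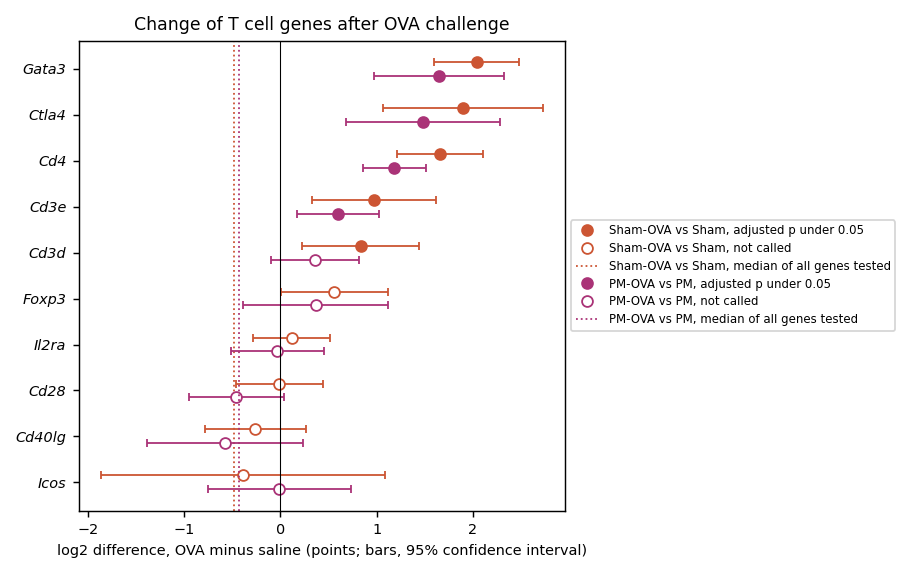
Log2 difference (OVA minus saline, log2(RPM + 0.5) scale) of each member in the 2 cohorts, with the 95% confidence interval of the limma fit. Filled points have an adjusted p under 0.05 and dotted lines mark the median of all genes tested, -0.48 and -0.43, and all filled points lie to the right of 0.

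Cd3e encodes the CD3 epsilon chain, which all T cells need to bring their receptor to the surface. It ranged from 9.26 to 29.5 RPM in Sham (median 13.9) and from 11.7 to 21.7 RPM in PM (median 18.3). The Sham-OVA libraries, replicates 1 to 5, held 45.6, 41.1, 17.1, 42.5 and 27.8 RPM, and the PM-OVA libraries, replicates 1 to 4, held 33.5, 29.0, 27.0 and 19.2 RPM. In each cohort 3 OVA libraries exceeded every saline library, and Sham-OVA replicates 3 and 5 and PM-OVA replicate 4 stayed within the saline range. Cd3e differed on the log2 scale by 0.97 ± 0.302 (SE) in Sham offspring and 0.59 ± 0.197 in PM offspring, with limma adjusted p = 0.0104 and 0.0180.

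Cd3d, the CD3 delta chain, held 4.59 to 12.5 RPM in Sham (median 5.77) and 5.11 to 8.57 RPM in PM (median 7.70). The Sham-OVA libraries held 17.0, 14.3, 6.21, 15.6 and 12.1 RPM and the PM-OVA libraries 12.2, 9.74, 6.11 and 10.5 RPM. As with Cd3e, 3 OVA libraries of each cohort lay above the saline range and the groups overlapped. The log2 difference was 0.83 ± 0.285 in Sham offspring, which passed the test (limma adjusted p = 0.0174), and 0.36 ± 0.211 in PM offspring, which did not (limma adjusted p = 0.152). Without PM-OVA replicate 3 the latter became 0.55 (limma adjusted p = 0.0288), and it was called with median-of-ratios factors (0.70, limma adjusted p = 0.00671), quantile normalisation (0.80, limma adjusted p = 0.00327), edgeR (0.77, adjusted p = 0.00429) and DESeq2 (0.76, adjusted p = 3.75e-04). Under 19 of the 24 alternatives Cd3d stayed uncalled in PM offspring, with a lowest log2 difference of 0.04. Per kb, Cd3d stood at 0.743 to 1.24 times Cd3e in all libraries of the saline groups and of Sham-OVA, and at 0.509 to 1.23 times in PM-OVA.

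Cd4, the co-receptor, held 11.8 to 21.2 RPM in Sham (median 16.8) and 15.8 to 21.3 RPM in PM (median 16.9), compared to 59.9, 68.2, 45.4, 56.6 and 29.9 RPM in Sham-OVA and 42.9, 36.2, 50.8 and 32.3 RPM in PM-OVA. All 9 OVA libraries, the 3 shallow ones included, lay above all 14 saline libraries. The mean was 3.30 times higher in Sham-OVA (log2 difference 1.66 ± 0.210, limma adjusted p = 8.94e-06) and 2.33 times higher in PM-OVA (1.18 ± 0.152, limma adjusted p = 8.04e-05). Cd4 and Gata3 were the 2 members without overlap in Sham offspring, where 13.2% of genes tested had every OVA library above every Sham library, and Cd4, Ctla4 and Gata3 the 3 in PM offspring, where 13.3% did. Cd4 RNA is also carried by some macrophages and dendritic cells of mice, and of the dendritic cell marker genes tested 5 of 8 were higher in each cohort and 2 (Sham) and 0 (PM) lower. Their summed level ranged from 85.1 to 136 RPM (Sham), 87.7 to 119 (PM), 180 to 389 (Sham-OVA) and 244 to 331 (PM-OVA), with no marker at 0 in every library of a group, and their part in the Cd4 result was not tested.

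Gata3 showed the largest log2 difference of the members in both cohorts. It ranged from 7.27 to 16.3 RPM in Sham (median 12.3) and from 6.75 to 24.1 RPM in PM (median 10.5). The Sham-OVA libraries held 62.2, 42.7, 46.9, 57.7 and 35.5 RPM, and the PM-OVA libraries 24.5, 34.5, 44.9 and 56.7 RPM. The groups did not overlap in either cohort, although the lowest PM-OVA library and the highest PM library were less than 1 RPM apart. Gata3 was higher by 2.04 ± 0.207 on the log2 scale in Sham offspring (limma adjusted p = 1.29e-06) and 1.65 ± 0.311 in PM offspring (limma adjusted p = 6.85e-04), which placed Gata3 above 97.4% and 96.4% of all genes tested. Genes that GENCODE places over Gata3 held at most 1.46 RPM in any library. Of the 8 ILC2 markers, a list that holds Gata3 itself, 3 were higher and 2 lower in each cohort, the former Arg1, Il1rl1 and Gata3 and the latter Rora and Il7r, and their summed level ranged from 178 to 229 RPM (Sham), 166 to 227 (PM), 109 to 311 (Sham-OVA) and 138 to 243 (PM-OVA), so that it overlapped between all groups. The part of ILC2 in the Gata3 result was not tested.

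Ctla4, the inhibitory receptor of activated T cells and Treg cells, ranged from 2.41 to 3.73 RPM in Sham (median 3.36) and from 1.28 to 4.88 RPM in PM (median 3.22). The Sham-OVA libraries held 26.8, 14.97, 3.73, 28.1 and 8.55 RPM, and the PM-OVA libraries 19.4, 11.5, 6.90 and 5.08 RPM. Its OVA libraries were the most unequal of the called members, and the shallow Sham-OVA replicate 3, with 12 reads, was level with the highest Sham library. Ctla4 was higher by 1.90 ± 0.389 on the log2 scale in Sham offspring (limma adjusted p = 5.84e-04) and 1.4796 ± 0.369 in PM offspring (limma adjusted p = 0.00376). Leaving out each library in turn, it stayed between 1.63 and 2.32 in Sham offspring and between 1.15 and 1.76 in PM offspring.

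For differentially expressed genes the study used a stricter threshold (adjusted p under 0.000001 and an absolute log2 difference above 1), which it applied with DESeq2 to raw counts. At this threshold the main limma fit called 0 members in either cohort. Beside this stand 1.98% of genes higher and 2.53% lower in Sham-OVA, and 0.262% higher and 0.0238% lower in PM-OVA. These limma counts are not calls by the method of the study. At an unadjusted p under 0.05, 6 members were called in Sham offspring (the 5 named and Foxp3) beside 70.9% of genes, and 4 in PM offspring beside 68.8%. On the recovered reads, edgeR placed 2 members (Cd4 and Gata3) past the stricter threshold in Sham offspring and 0 in PM offspring, and DESeq2 placed 3 (Cd4, Ctla4 and Gata3) past it in each cohort. In Sham offspring limma placed 1 member past it with median-of-ratios factors (Gata3), 2 after quantile normalisation (Cd4 and Gata3) and 3 with array weights (Cd4, Ctla4 and Gata3). The share of all genes past it was not counted for these alternatives, so their member counts stand without a background.

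Foxp3, the factor that defines Treg cells, was the lowest member in RPM per kb in Sham lung and rests on few reads. It ranged from 0.930 to 2.03 RPM in Sham (median 1.501, 16 to 32 reads) and from 0.587 to 2.27 RPM in PM (median 1.32, 10 to 33 reads). In Sham-OVA the libraries held 3.20, 2.86, 0.932, 2.63 and 2.48 RPM and in PM-OVA 3.23, 3.01, 1.46 and 0.545 RPM. In Sham-OVA 4 of 5 libraries lay above all Sham libraries, and the other, replicate 3, held 3 reads. In PM-OVA the 2 deeper libraries lay above all PM libraries and replicate 4, also with 3 reads, below them. Foxp3 was not called in either cohort, with log2 differences of 0.56 ± 0.259 (limma adjusted p = 0.0663) and 0.37 ± 0.349 (limma adjusted p = 0.368). Leaving out 1 library changed the call in each: without Sham-OVA replicate 3 the difference was 0.80 (limma adjusted p = 0.00253), and without PM-OVA replicate 4 it was 0.74 (limma adjusted p = 0.0472). The scaling changed it too. In Sham offspring Foxp3 was called higher with median-of-ratios factors (0.84), quantile normalisation (1.12), array weights (0.66), edgeR (1.22) and DESeq2 (1.15), with adjusted p between 8.23e-05 and 0.00411, and in PM offspring with quantile normalisation (0.80, limma adjusted p = 0.0158), edgeR (1.001, adjusted p = 0.0368) and DESeq2 (0.999, adjusted p = 0.0202). Foxp3 overlaps Ccdc22, Ppp1r3f and Gm36995 on the opposite strand and Flicr on its own, and the counting is not stated to use strand. Ccdc22 held 15.3 ± 2.45 RPM in Sham and 33.4 ± 5.09 in Sham-OVA, Ppp1r3f 10.01 ± 1.43 and 4.72 ± 1.29 RPM, all above Foxp3 itself, so reads from these genes and from Foxp3 cannot be told apart where they overlap.

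Il2ra, which encodes CD25, the high-affinity chain of the interleukin-2 receptor on Treg and activated T cells, did not pass the test. It ranged from 4.46 to 6.65 RPM in Sham (median 5.85) and from 3.87 to 6.78 RPM in PM (median 5.68), compared to 6.60, 6.39, 4.04, 6.85 and 6.94 RPM in Sham-OVA and 8.13, 5.80, 3.58 and 4.54 RPM in PM-OVA. The 4 groups overlapped throughout. The log2 differences were 0.12, with a 95% confidence interval from -0.28 to 0.52, and -0.03 (-0.52 to 0.46). In Sham offspring Il2ra was called higher under other scalings, with median-of-ratios factors (0.46, limma adjusted p = 0.0142), quantile normalisation (0.62, limma adjusted p = 0.00259), edgeR (0.58, adjusted p = 0.00414) and DESeq2 (0.50, adjusted p = 0.00241).

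Cd28, the constitutive costimulatory receptor of T cells, was the member with the most reads among those that were not called. It ranged from 10.5 to 23.6 RPM in Sham (median 18.1) and from 12.1 to 26.7 RPM in PM (median 17.5). The OVA libraries held 17.1, 19.0, 14.6, 17.0 and 13.9 RPM in Sham-OVA and 18.2, 14.3, 11.4 and 8.72 RPM in PM-OVA. All Sham-OVA libraries lay within the Sham range, and 2 PM-OVA libraries lay below every PM library. The log2 difference was -0.01 in Sham offspring, with an interval from -0.46 to 0.44, and -0.46 in PM offspring (-0.95 to 0.03, limma adjusted p = 0.0929). The latter was -0.63 without PM-OVA replicate 1 (limma adjusted p = 0.0221), -0.55 without PM replicate 5 (limma adjusted p = 0.0458) and -0.69 with array weights (limma adjusted p = 0.0291).

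Icos, the inducible costimulator, is known for T cells that help B cells and for Th2 effectors. It held 3.69 to 10.8 RPM in Sham (median 8.94) and 6.40 to 12.4 RPM in PM (median 8.42). The OVA libraries spread further, with 19.1, 11.6, 0, 13.4 and 6.13 RPM in Sham-OVA and 19.5, 10.4, 5.71 and 4.36 RPM in PM-OVA. Sham-OVA replicate 3 held no read of Icos, which at its depth allows up to 0.932 RPM (3 reads, counting error only), whereas the same library held 55 reads of Cd3e. The log2 difference was -0.39 (-1.86 to 1.08) in Sham offspring and -0.01 (-0.75 to 0.73) in PM offspring. Without Sham-OVA replicate 3 it was 0.53 in Sham offspring (limma adjusted p = 0.105).

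Cd40lg, the ligand through which helper T cells license B cells and dendritic cells, was the lowest member in RPM, with 0.405 to 1.20 RPM in Sham (median 0.836) and 0.646 to 1.22 RPM in PM (median 1.03). It held 1.46, 0.301, 0.311, 0.478 and 0.657 RPM in Sham-OVA, and 1.81, 0.850, 0 and 0 RPM in PM-OVA. The zeros fall in the 2 shallow PM-OVA libraries, where they allow up to 0.398 and 0.545 RPM. The log2 difference was -0.26 (-0.79 to 0.26) in Sham offspring and -0.58 (-1.39 to 0.23) in PM offspring. Without PM-OVA replicate 1, the library with the highest value, the latter was -1.01 (limma adjusted p = 0.00868), and with array weights -1.26 (limma adjusted p = 0.00349).

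A further comparison asked which members moved more or less than the CD3 genes of the same library, by subtracting the mean log2 value of Cd3e and Cd3d in each library. This removes the scaling between libraries, apart from the pseudocount. Relative to CD3, Gata3, Ctla4 and Cd4 were higher in both cohorts, 3 of 8 members beside 4.73% of all genes in Sham offspring and 7.55% in PM offspring. The log2 differences were 1.138 ± 0.321 and 1.172 ± 0.313 for Gata3, 1.00 ± 0.358 and 1.00 ± 0.342 for Ctla4, and 0.76 ± 0.308 and 0.71 ± 0.211 for Cd4, with limma adjusted p between 0.00129 and 0.0234. All genes in this fit share the noise of Cd3e and Cd3d, which the test treats as separate for each gene. Its p-values may therefore be too small. Lower than CD3 were Icos, Cd28, Cd40lg and Il2ra in Sham offspring and Cd28 and Cd40lg in PM offspring. These counts of 4 and 2 of 8 lie beside 71.6% and 61.8% of all genes and are below that background, so they are no result about the members. In Sham offspring Cd4 was not called without Sham-OVA replicate 3 (0.56, limma adjusted p = 0.0923) or replicate 2 (0.71, limma adjusted p = 0.0619), or relative to Cd3e alone (0.69, limma adjusted p = 0.0590), nor Ctla4 without replicate 4 (0.81, limma adjusted p = 0.0613).

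**Figure D3:**
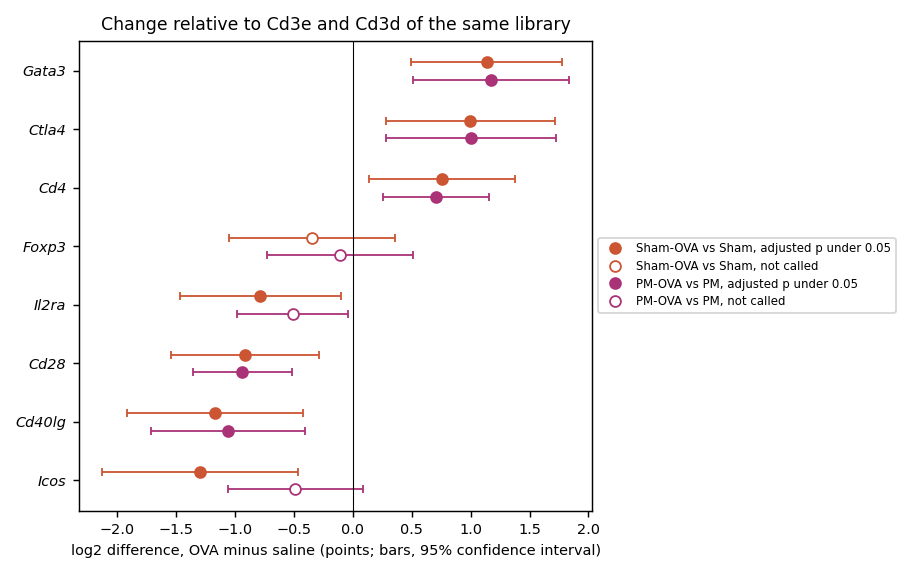
Log2 difference (OVA minus saline) of 8 members after subtraction of the mean log2 value of Cd3e and Cd3d in the same library, with the 95% confidence interval of the limma fit and filled points for an adjusted p under 0.05. Gata3, Ctla4 and Cd4 lie above 0 in both cohorts, and Foxp3 lies near 0, at -0.34 and -0.11.

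Among the 8 members set against CD3, Foxp3 had the smallest difference in both cohorts. The difference was -0.34 (-1.05 to 0.36) in Sham offspring and -0.11 (-0.73 to 0.51) in PM offspring. The ratio of Foxp3 to Cd3e per kb had a median of 0.0666 (Sham), 0.0599 (PM), 0.0620 (Sham-OVA) and 0.0670 (PM-OVA), which is a description of the libraries and does not show that the ratio stayed the same. The ratio of Ctla4 to Foxp3 per kb ranged from 2.67 to 7.12 in Sham and 6.76 to 21.0 in Sham-OVA, and from 1.59 to 12.8 in PM and 7.50 to 18.3 in PM-OVA. Several of these ratios rest on few Foxp3 reads. The highest PM-OVA ratio (replicate 4) rests on 3 Foxp3 reads, as does that of Sham-OVA replicate 3, and the highest PM ratio (replicate 5) on 10. Between the neighbouring genes Ctla4 and Cd28, whose proteins compete for the same ligands, the ratio per kb ranged from 0.268 to 0.837 in Sham and 0.671 to 4.35 in Sham-OVA, and from 0.192 to 0.825 in PM and 1.53 to 2.80 in PM-OVA. In PM offspring the OVA and saline ranges of this ratio were apart, and in Sham offspring they met. Gata3 per kb stood at 0.497 to 1.53 times Cd3e in Sham and 1.07 to 2.82 times in Sham-OVA, and at 0.497 to 1.18 times in PM and 0.750 to 3.02 times in PM-OVA. Cd28 stood at 0.520 to 0.866 times Cd3e in Sham and 0.250 to 0.570 times in Sham-OVA. In PM it stood at 0.576 to 0.846 times Cd3e and in PM-OVA at 0.282 to 0.362 times, without overlap. Relative to the CD3 genes, 71.6% (Sham offspring) and 61.8% (PM offspring) of all genes were lower, so the fall of Cd28 is no result about this gene. How many genes of the table separate in ratios such as these was not counted. Icos to Cd28, the other pair of this locus, had a median between 0.937 and 1.10 in all 4 groups.

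Gene length moved with the OVA response over the whole table. In Sham offspring the median log2 difference fell from 0.20 for the 742 genes with under 1 kb of exons to -0.92 for the 4640 genes with over 6 kb, and in PM offspring from 0.19 to -0.88. The longest members, Cd28 (6122 bases) and Il2ra (5711 bases), are among those that were not called, while Gata3, Cd4 and Cd3e, at 3978 to 4080 bases, were called against a median of all genes of their length that was below 0 in both cohorts. The shortest member, Cd40lg (1250 bases), was not called either, nor were Icos (3430 bases) and Foxp3 (4577 bases). Ctla4 (2330 bases) was called in both cohorts and Cd3d (1815 bases) in Sham offspring. With the trend with length removed in each library, an alternative chosen after seeing the data, 8 members were higher in Sham offspring, where Foxp3 (1.04), Il2ra (0.74) and Cd28 (0.65) passed beside the 5 named. Of all genes tested, 32.1% were called higher in Sham offspring under this setting and 30.9% in PM offspring. In PM offspring Cd28 was 0.18 (limma adjusted p = 0.393) and Il2ra 0.57 (limma adjusted p = 0.0130) under the same setting, and Foxp3 was 0.82 (limma adjusted p = 0.0227). The part of length in the members' results was not tested further.

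**Figure D4:**
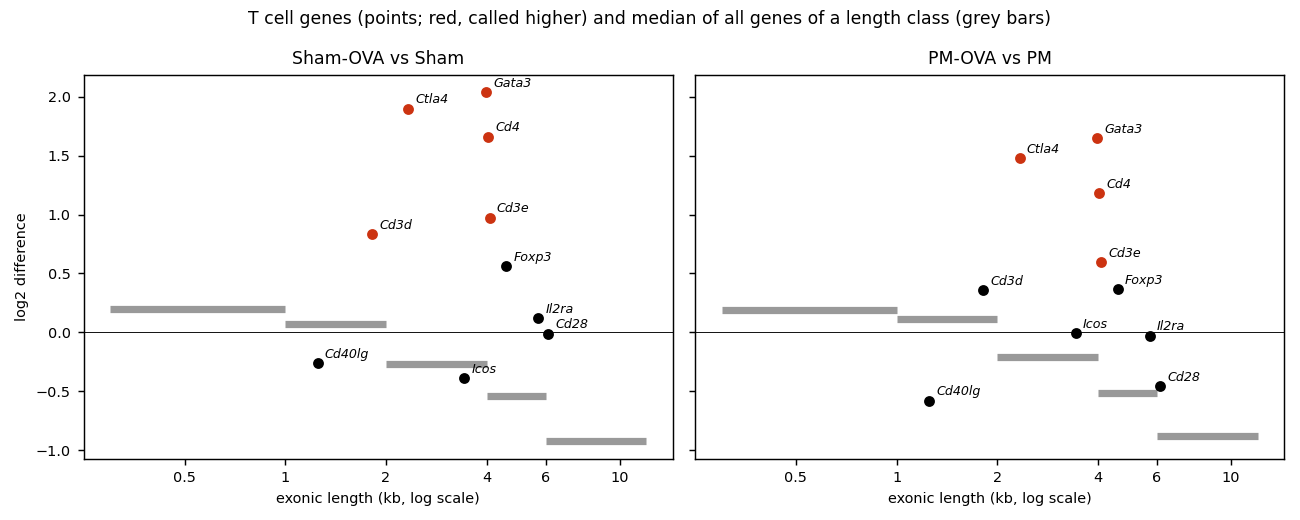
Log2 difference after OVA of the 10 members (points, red where called higher) against exonic length in kb on a log axis, beside the median of all genes of each length class (grey bars), in Sham offspring and PM offspring. The bars fall from 0.20 and 0.19 for the shortest genes to -0.92 and -0.88 for the longest, and in both panels Gata3, Ctla4 and Cd4 lie above 1.

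The effect of maternal exposure was compared with and without challenge. In PM compared to Sham, 0 of 10 members were called and 0 of 16795 genes (0% called, limma), and at an unadjusted p under 0.05 it was 0 members and 4.35% of genes. The members' log2 differences ran from -0.09 for Foxp3 to 0.16 for Cd4, and their 95% confidence intervals together reached from -0.51 (Foxp3) to 0.56 (Icos). DESeq2 and edgeR also called 0 genes. In PM-OVA compared to Sham-OVA, limma again called 0 members and 0 genes (0%), with 0 members and 1.86% of genes at an unadjusted p under 0.05, edgeR called 0 genes and DESeq2 called 1 gene, no member. Of the 10 members, 9 had a fitted log2 difference below 0, between -0.45 for Ctla4 (-1.81 to 0.92) and -0.18 for Il2ra (-0.88 to 0.51), and Cd4 was -0.32 (-0.89 to 0.25). The median of all genes was 0.013, and the share of genes below 0 was not counted. The members were measured in the same libraries, so this count is a description and no result about them. Icos was 0.49 (-1.75 to 2.73), and it was -0.43 without the Sham-OVA library that held no Icos read.

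The test of the difference between the 2 OVA responses, the interaction of maternal exposure and OVA, called 0 members and 0 genes (0%, limma), and 0 members and 5.08% of genes at an unadjusted p under 0.05. Cd4 came nearest, with a response smaller by 0.48 on the log2 scale in PM offspring (interval -1.02 to 0.07, unadjusted p = 0.0823 and adjusted p = 0.99976 over all genes, limma). For Cd3d, called in Sham offspring and not in PM offspring, the difference was -0.48 (-1.24 to 0.28), and a difference between the cohorts was not shown. With array weights, which give less weight to libraries that deviate and ran from 0.0582 to 3.59 here, limma called 651 genes higher and 3965 lower in the interaction, of 16795 tested. The genes lower included 2 of the 10 members, Cd3d (-0.93, limma adjusted p = 0.0444) and Cd40lg (-1.04, limma adjusted p = 0.0485). Beside so many genes lower, this is no result about the members. No other alternative called a member. edgeR called 0 genes and DESeq2 2 genes in the interaction.

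Genes that act with the members were read from lists compiled by hand. Of 18 genes of the T cell receptor complex and its signalling, 7 were higher and 4 lower after OVA in each cohort, with a median log2 difference of 0.55 in Sham offspring and 0.30 in PM offspring, against the medians of all genes given above. Trbc2, a constant region of the receptor beta chain, was 2.15 ± 0.244 and 1.65 ± 0.197, although its reads may be split with the near-identical Trbc1, and the adaptor gene Lcp2 was 1.37 ± 0.190 and 0.80 ± 0.145. Tcf7 (-1.38 ± 0.307 and -1.31 ± 0.282), whose factor marks naive and memory T cells, was lower. Trac, the receptor alpha constant region, was not called in either cohort (0.53 and -0.0037 on the log2 scale).

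Of 14 Th2 cell genes tested, 6 were higher in each cohort and 3 (Sham) and 2 (PM) lower. The cytokine genes Il4, Il5 and Il13 were among the higher ones, with Il13 at 1.73 ± 0.460 and 1.14 ± 0.283, but their levels were low. Il13 was listed at 0 in all 7 Sham libraries, and reached 4.24 RPM at most in Sham-OVA and 1.31 RPM in PM-OVA, with at least 1 library at 0 in both OVA groups, so its fitted difference depends on the pseudocount. Irf4, a factor of activated T cells and of plasma cells, was the highest at 4.32 ± 0.205 and 3.75 ± 0.339, and Ptgdr2, the prostaglandin D2 receptor of Th2 cells, eosinophils and ILC2, was the lowest at -1.47 ± 0.301 and -1.65 ± 0.214, followed by Pparg. The plasma cell gene Jchain held 14.2 to 145 RPM in the saline libraries and 3788 to 9793 RPM in the OVA libraries, and the part of plasma cells in the Irf4 level was not tested.

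Of 17 Treg cell genes, 8 (Sham) and 6 (PM) were higher and 4 lower in each cohort. Tnfrsf9, which encodes the activation receptor 4-1BB, was 4.34 ± 0.224 and 4.06 ± 0.233, and the cytokine gene Il10 was 3.85 ± 0.269 and 2.79 ± 0.299. Ikzf2, which encodes the Treg factor Helios, was lower, at -1.20 ± 0.375 and -1.18 ± 0.316, as was Nt5e, the gene of CD73, at -1.33 ± 0.269 and -1.21 ± 0.264. The list held the receptors Tnfrsf4 and Tnfrsf18, also higher in both cohorts, and most of its genes are used by other activated lymphocytes or myeloid cells too.

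Among 8 partners of the CD28 family tested, 4 were higher and 2 lower in each cohort. Pdcd1, the inhibitory receptor PD-1, rose by 3.24 ± 0.283 and 2.95 ± 0.244 on the log2 scale, and its ligand gene Pdcd1lg2 by 3.97 ± 0.273 and 3.25 ± 0.211. Cd80, a ligand shared by CD28 and CTLA-4, and Cd40, the receptor of CD40 ligand, were the other 2 that rose, whereas Icosl, the ligand of ICOS, was lower (-0.97 ± 0.168 and -0.61 ± 0.208), as was Btla (-1.07 ± 0.324 and -1.07 ± 0.342). Of 8 tested genes of other helper lineages, 1 was higher and 2 lower in each cohort, with Il21 higher in Sham offspring, and Ccr6 and Bcl6 lower in both. Ccr6 was listed at 0 in all Sham-OVA libraries. Of 8 homing receptors, 3 were higher in each cohort, Itga4 and Itgb7 among them, and S1pr1, through which lymphocytes leave lymph nodes and which endothelium also expresses, was lower at -1.83 ± 0.291 and -1.80 ± 0.315.

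**Figure D5:**
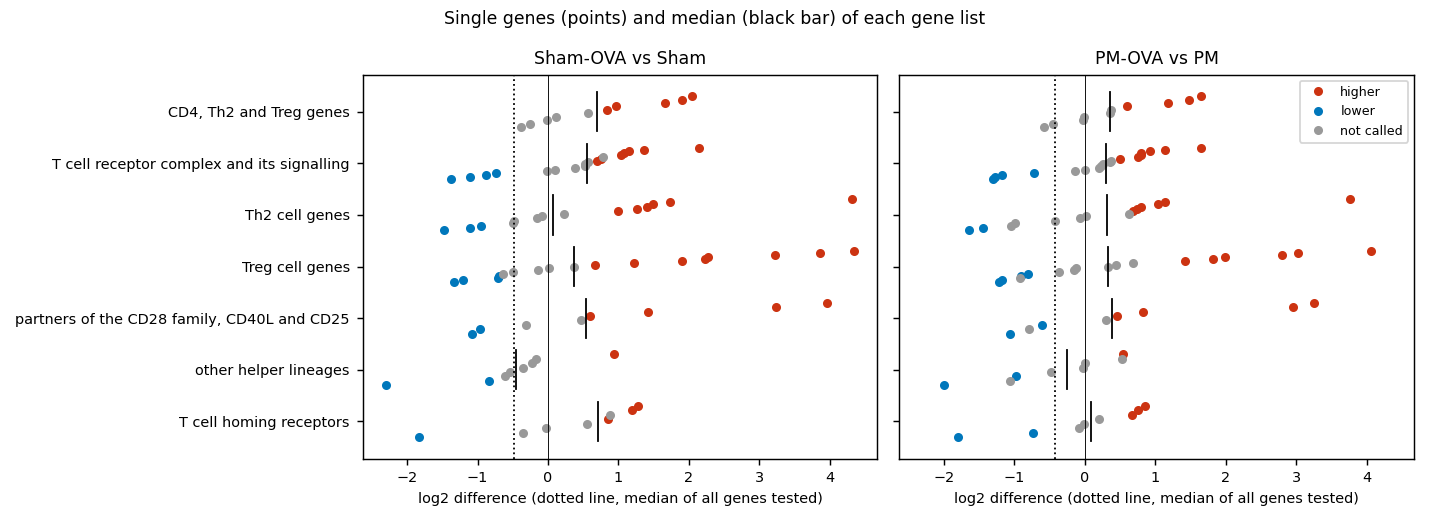
Log2 difference after OVA of every tested gene of the members and of 6 lists (points, coloured by the limma call at an adjusted p under 0.05), with the median of each list (black bar) and of all genes tested (dotted line). The members' medians are 0.70 in Sham offspring and 0.36 in PM offspring, and each list except the members' own holds called genes on both sides of 0.

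Markers of other lymphocytes were read beside the members. Of 8 markers of CD8 T and NK cells, 6 were lower in Sham offspring and 7 in PM offspring and 0 higher, beside 47.5% and 45.2% of all genes called lower, with a summed level of 78.6 to 211 RPM (Sham), 102 to 180 (PM), 27.7 to 119 (Sham-OVA) and 41.9 to 105 (PM-OVA). Of 8 B cell markers, 3 were higher and 0 lower in Sham offspring and 2 higher and 1 lower in PM offspring, with Cd79b at 2.18 ± 0.360 and 1.62 ± 0.235, also a gene of plasma cells. The gamma delta T cell genes Trdc and Sox13, the 2 of that list that were tested, were lower in both cohorts. For thymus, 3 of 8 markers were tested, of which 1 (Sham) and 0 (PM) were higher and 2 lower in each cohort, and Ptcra, a defining gene of thymocytes, was listed at 0 in all 23 libraries and Rag2 at 0 in all PM, Sham-OVA and PM-OVA libraries. As a check of the label, the 7 genes Cd3e, Cd3d, Cd3g, Cd4, Trac, Trbc1 and Trbc2 were present in every group, with a summed level of 54.5 to 131 RPM (Sham), 58.9 to 93.2 (PM), 136 to 248 (Sham-OVA) and 125 to 162 (PM-OVA), so that the OVA libraries lay above the saline libraries of their own cohort. This sum contains 3 members and is a description.

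The tested genes whose pattern over the 23 libraries was nearest to a member were found from log2 values centred on the Sham mean, by the root mean square difference. Nearest to Cd3e were B2m (0.231), Cd2 (0.239) and Parvg (0.240), and nearest to Foxp3 were Cbr3 (0.280), Fgl2 (0.286) and Dock2 (0.296). For Gata3 they were H2-D1 (0.315), Syngr2 (0.319) and Spi1 (0.319), and for Ctla4 Gm5535 (0.397), Ifi30 (0.406) and Rgs1 (0.414). The libraries share depth and the shift of all genes after OVA, and many genes lie at like distances.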

How the data were processed

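RNA-Seq of lung from 23 offspring was used, 7 Sham, 7 PM, 5 Sham-OVA and 4 PM-OVA, grouped by the maternal exposure and challenge in their titles. Per the labels the libraries were made with a stranded mRNA kit, and per the study's methods the authors sequenced single ends and used Trimmomatic for trimming and Bowtie2 for alignment to GRCm38, with gene values obtained in SeqMonk. The submitters' processing notes name mm10 and bcl2fastq. The deposited values, 1 per gene and library, are treated here as RPM (reads scaled to a common library size, with no division by gene length). The table is named after RPKM, but dividing by the worth of 1 read gave whole numbers for 100% of the values, irrespective of gene length (tolerance 0.05 reads), so reads were recovered.

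The members and the gene lists were chosen with earlier results of these data known. Values were analysed as log2(RPM + 0.5) with limma 3.58.1 (trend, R 4.3.3) on genes reaching 0.5 RPM in 4 or more libraries, a separate fit for each comparison and all 4 groups for the interaction, with Benjamini-Hochberg adjustment over all genes tested and calls at an adjusted p under 0.05. The same fit was made relative to the mean log2 value of Cd3e and Cd3d (16793 genes). Fold changes on this scale understate the change of low genes. Genes named were all members, the 2 highest and 2 lowest of each list in Sham-OVA compared to Sham (some are not reported here) and genes a result turned on, and the 3 genes nearest to Cd3e, Foxp3, Gata3 and Ctla4. Alternatives were other pseudocounts, filters, scalings and estimators, a replicate block, edgeR 4.0.16 and DESeq2 1.42.0 on the recovered reads, other CD3 references, leaving out each library and, chosen after seeing the data, removal of the trend with exonic length, known for 98.3% of genes tested (GENCODE). The fits were tested on simulated data. Intervals and limits at 0 reads cover counting error only where they concern reads. Nothing in the labels ties libraries to litters, so p-values measure the spread between these animals. Figures were drawn with matplotlib 3.10.9. DNA methylation was not analysed here.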

Additional observations from a re-analysis of the deposited data

Results flagged for a closer look

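In a group of 4 to 10 libraries, a library was singled out where its gap to the nearest other library was larger than Dixon's 95% critical value allows for the range of the group. Of the 40 groups examined (10 members in 4 groups), 3 held such a library, and chance alone gives about 1 in 20, or 2. Cd4 in PM replicate 4 was 21.3 RPM, the highest of the 7 PM libraries, and it stayed below every OVA library. Foxp3 in Sham-OVA replicate 3 was 0.932 RPM, or 3 reads, and Il2ra in the same library was 4.04 RPM, each the lowest of the 5. Sham-OVA replicate 3 was the shallowest library of the series, with 2298645 reads on genes, and the part of depth in its low values was not tested.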

How the results depend on the processing

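The calls of Gata3, Ctla4, Cd4, Cd3e and Cd3d in Sham-OVA compared to Sham held under all 25 alternatives run for each, with log2 differences from 0.84 to 1.41 for Cd3e, 0.69 to 1.31 for Cd3d, 1.55 to 2.18 for Cd4, 1.63 to 2.76 for Ctla4 and 1.94 to 2.54 for Gata3. In PM-OVA compared to PM, Cd4 (1.07 to 1.63) and Gata3 (1.38 to 2.14) held under all 24, whereas Cd3e was not called in one fit of all 4 groups (0.59, limma adjusted p = 0.0677), with array weights (0.45, limma adjusted p = 0.0844) or with the replicate block (0.48, limma adjusted p = 0.175), nor Ctla4 with array weights (1.13, limma adjusted p = 0.0531). Members higher numbered 8 in Sham offspring with the length trend removed, beside 32.1% of genes tested, and 2 in PM offspring with array weights, where 2 members were lower. Under the 24 alternatives in PM offspring, 2288 to 5321 genes were called higher and 5095 to 8513 lower. Beside these numbers the members higher and lower with array weights are no result about the members. Genes called higher numbered 5484 and 5288 (Sham and PM offspring) after quantile normalisation, 5584 and 5120 with edgeR, 5286 and 5321 with DESeq2 and 5390 and 5186 with the length trend removed, compared to 3453 and 3379. PM-OVA compared to Sham-OVA gave 1 gene lower in one fit of all groups and 1 higher with DESeq2, and the interaction 1 gene higher with no filter, 2 with DESeq2 and, with array weights, 651 higher and 3965 lower and 2 members lower. Relative to CD3 in Sham offspring, Cd3g and Cd247 as reference gave 1467 genes higher and 0 members lower and removal of the length trend 2 members lower, and in PM offspring the replicate block gave 1 member lower. Under the alternatives relative to CD3, 9750 to 12829 genes were lower in Sham offspring and 8784 to 10824 in PM offspring. Members that were not called changed sign under several settings. In Sham offspring Cd28 was 0.35 with median-of-ratios factors, 0.40 after quantile normalisation, 0.39 with edgeR, 0.32 with DESeq2 and 0.65 with the length trend removed, Icos was 0.052 after quantile normalisation, 0.36 with array weights, 0.70 with edgeR and 0.54 with DESeq2, and Cd40lg was 0.33 after quantile normalisation, 0.10 with edgeR and 0.015 with DESeq2. In PM offspring Icos was 0.33, 0.47, 0.49, 0.48 and 0.29 and Il2ra 0.30, 0.42, 0.36, 0.37 and 0.57 with median-of-ratios factors, quantile normalisation, edgeR, DESeq2 and the length trend removed, Cd28 was 0.18 with the last, Cd40lg 0.0024 with edgeR and Foxp3 -0.037 with array weights. In PM compared to Sham, array weights gave -0.071 for Cd3e, -0.051 for Icos and -0.0058 for Cd28, edgeR -0.00039 for Cd3e and 0.024 for Ctla4, and DESeq2 0.028 for Ctla4. Icos in PM-OVA compared to Sham-OVA was -0.63 with array weights, whose estimation did not converge in this comparison, and -0.040 with edgeR, and in the interaction -0.86 with array weights, -0.13 with edgeR and -0.097 with DESeq2. Relative to CD3, Foxp3 was 0.11 (Sham) and 0.074 (PM) against Cd3g and Cd247, and 0.17 in PM offspring with the length trend removed. The cause of these changes was not tested. Leaving out each library in turn, uncalled members changed sign within the ranges -0.11 to 0.075 (Cd28) and -0.79 to 0.53 (Icos) in Sham offspring, and -0.39 to 0.29 (Icos) and -0.22 to 0.14 (Il2ra) in PM offspring. They did so in PM compared to Sham for Cd3e (-0.050 to 0.22), Icos (-0.057 to 0.18), Foxp3 (-0.20 to 0.022), Ctla4 (-0.12 to 0.14), Gata3 (-0.094 to 0.20) and Il2ra (-0.083 to 0.040). In PM-OVA compared to Sham-OVA it was Icos (-0.43 to 0.89), Cd40lg (-0.63 to 0.11) and Foxp3 (-0.53 to 0.086), in the interaction Icos (-0.54 to 0.78), Foxp3 (-0.43 to 0.18) and Il2ra (-0.34 to 0.018), and relative to CD3 in PM offspring Foxp3 (-0.29 to 0.22). The counts without 1 library ranged from 0 to 2 members lower in PM-OVA compared to PM, from 0 to 6 genes higher and 0 to 1 lower in the interaction, and, relative to CD3 in PM offspring, from 822 to 2029 genes higher and 2 to 4 members lower. Beside these members, 6485 to 8476 genes were lower in PM-OVA compared to PM and 9930 to 10473 relative to CD3 in PM offspring. The replicate numbers of the titles, used here, differ from those in the library names of the OVA groups, by which no pairing was tried. The main fits did not pair libraries by these numbers. In PM-OVA compared to Sham-OVA, correlations of same-numbered deviations from the group means ran from -0.31 to 0.62, and 3 of 4 exceeded 0.1. In Sham-OVA compared to Sham 1 of 5 exceeded 0.1, in PM-OVA compared to PM 0 of 4 and in PM compared to Sham 1 of 7. In these last 3 comparisons 2 of 5, 1 of 4 and 0 of 7 libraries correlated best with their own number, and 2 of 4 in PM-OVA compared to Sham-OVA. The replicate block also ended the call of Il2ra relative to CD3 in Sham offspring (-0.65, limma adjusted p = 0.106) and of Cd40lg in PM offspring (-0.96, limma adjusted p = 0.0528), and changed no other call of a member. In the 3 shallowest OVA libraries 0 to 43 reads of Foxp3, Cd40lg and Icos were counted. Sham-OVA replicate 3 also held few reads of Ctla4 (12), Il2ra (13) and Cd3d (20). The part of depth in these values was not tested.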
